A study of Mus musculus with 2 samples.

Results

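Of the 779 TCF7 peaks called in DP352 lymphoma cells, 257 were placed past the start of their nearest gene: 175 lay inside that gene, 81 lay downstream of it and 1 crossed its end. They were taken by the place that the deposited nearest-gene table gives each peak, with no direct use of enrichment or sequence. Only a peak whose called extent reaches a gene start counts as covering it, so place is not independent of peak length. The remaining peaks were 229 that covered a gene start and 293 that lay upstream of the nearest gene. The ChIP-seq compared 1 library immunoprecipitated with a rabbit monoclonal antibody to TCF1/TCF7 (C63D9) with 1 library of sonicated input DNA. Both came from 1 mouse T-cell line, labelled T-ALL and Lck-Akt2;Dlx5 transgenic, in which the Lck promoter drives both transgenes, Dlx5 and a myristoylated Akt2, in T-lineage cells, and neither had a replicate. The study asked which genes lie under β-catenin and TCF in these lymphomas. The line has no untransformed counterpart among these libraries, and its T-cell identity could not be checked from DNA.

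TCF7 is an HMG-box transcription factor of developing and mature T cells. It binds DNA in the minor groove at sites built around CTTTG, on its own or with β-catenin, and takes part in T-lineage specification together with RUNX, ETS, GATA3 and E-protein factors. Its sites in T cells are known both at promoters and at enhancers, and many enhancers lie in introns or beyond the ends of genes.

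The 61-base stretches that follow come from peaks lying over 1000 bp from any protein-coding transcription start site (TSS), and from peaks near one. All are printed on the plus strand of mm10 (GRCm38). The first set holds the TCF/LEF motif, CTTTGNN with A or T at both N. It is shown because the share of peaks with this word differed between members away from a TSS and those near one. The stretches are centred on the motif nearest to the summit in the 8 such peaks of highest enrichment, each named by its nearest gene, and capitals mark TCF/LEF and RUNX motifs on either strand.
A830009L08Rik, chr13:91371283-91371343: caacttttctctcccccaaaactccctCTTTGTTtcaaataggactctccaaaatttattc
Msra, chr14:64392734-64392794: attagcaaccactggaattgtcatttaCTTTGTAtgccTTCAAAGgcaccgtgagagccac
Gm8317, chr14:45812694-45812754: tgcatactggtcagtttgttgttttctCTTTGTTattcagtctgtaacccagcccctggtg
Inpp5d, chr1:87637201-87637261: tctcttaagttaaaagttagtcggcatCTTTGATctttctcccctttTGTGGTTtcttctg
Gm12287, chr11:63589340-63589400: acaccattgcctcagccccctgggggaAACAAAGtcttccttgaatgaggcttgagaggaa
Znrf1, chr8:111582306-111582366: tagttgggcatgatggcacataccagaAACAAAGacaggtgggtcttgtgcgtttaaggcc
Scn4a, chr11:106352234-106352294: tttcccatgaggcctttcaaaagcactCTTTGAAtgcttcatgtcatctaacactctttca
Olfr314, chr11:58789735-58789795: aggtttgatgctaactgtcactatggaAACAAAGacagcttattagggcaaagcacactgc

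The A830009L08Rik peak, in an exon of a lincRNA gene, reached 13.5-fold enrichment with 233 ChIP fragments at its summit (exact Poisson 95% interval 204 to 265), and its motif lay 95 bp from the summit. Msra encodes a methionine sulfoxide reductase, and its peak in intron 6 had 7.86-fold enrichment, 73 fragments and a motif 9 bp from the summit with another beside it on the opposite strand. Inpp5d encodes SHIP1, the phosphatase that removes the 5-phosphate of PIP3 in blood cells. Its peak in intron 2, 15.6 kb from the nearest TSS, had 7.73-fold enrichment and 107 fragments (88 to 129), and the window held 2 TCF/LEF motifs and 1 RUNX motif. The Znrf1 peak, in intron 2 of a gene for an E3 ubiquitin ligase, had 7.09-fold enrichment and 66 fragments. Scn4a encodes a muscle sodium channel, and its peak 1.08 kb from a TSS had 6.98-fold and 71 fragments. The peaks of Gm8317, Gm12287 and Olfr314 lay past the ends of these genes, at 7.82-fold, 7.11-fold and 6.73-fold with 45 to 60 fragments. Only the first of the 8 reached 10-fold.

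The second set holds the RUNX motif, TGTGGTT, in capitals on either strand, and is shown for the 4 peaks of highest enrichment among members away from a TSS that held it.
A430078G23Rik, chr8:3355511-3355571: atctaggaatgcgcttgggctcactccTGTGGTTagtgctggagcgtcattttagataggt
Slc7a1, chr5:148398638-148398698: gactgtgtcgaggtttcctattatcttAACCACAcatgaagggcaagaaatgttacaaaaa
Gm22951, chr15:99333203-99333263: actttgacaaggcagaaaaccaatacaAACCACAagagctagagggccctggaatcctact
Peak in Tshz2, chr2:169930040-169930100: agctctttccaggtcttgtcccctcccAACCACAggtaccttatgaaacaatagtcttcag

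The A430078G23Rik peak, in intron 1 and 2.08 kb from a TSS, reached 16.6-fold with 146 fragments (123 to 172), and its RUNX motif lay 6 bp from the summit. The Slc7a1 peak, in intron 1 of the gene for a cationic amino acid transporter and 1.04 kb from a TSS, reached 13.2-fold with 96 fragments (78 to 117). The Gm22951 peak lay in an intron of Fmnl3, a formin, at 10.1-fold with 156 fragments. The last peak, whose nearest gene had no match in the annotation, lay in an intron of Tshz2, a zinc-finger homeobox gene, at 9.76-fold with 185 fragments. None of the 4 windows held a TCF/LEF motif.

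The third set comes from members near a TSS and holds the SP1/KLF motif, GGGCGGGG, in capitals on either strand. It is shown because this GC box was in summits near a TSS and in none of the windows 2000 bp away from them.
Smc1a, chrX:152016876-152016936: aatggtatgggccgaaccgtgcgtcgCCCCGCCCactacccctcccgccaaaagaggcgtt
Nectin3, chr16:46497256-46497316: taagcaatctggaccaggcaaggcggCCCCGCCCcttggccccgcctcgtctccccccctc

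The Smc1a peak had 14.4-fold enrichment with 164 fragments and the Nectin3 peak, in intron 1 of a gene for a cell adhesion molecule, 12.8-fold with 97 fragments.

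Fold enrichment is the ratio that MACS2 gave for ChIP pileup at the summit over the local background set from the input. Across the 257 members its lowest, median and highest values were 2.81, 7.04 and 37.0, and its quartiles were 5.43 and 11.1. The pileups were whole multiples of a single step, so they could be read as ChIP fragments, of which there were 29 to 582 at the summit, with a median of 78. Peak length was 159 bp at the least, 227 bp at the median and 1012 bp at the most. By comparison, peaks covering a gene start had a median of 20.8-fold, 338 fragments and 439 bp, while upstream peaks had a median of 7.77-fold, 91 fragments and 252 bp. An enrichment of 10-fold or more was reached by 81 of 257 members (31.5%, Wilson 95% interval 26.1 to 37.4), beside 45.1% of the whole list. The share was 175 of 229 (76.4%, 70.5 to 81.5) in peaks covering a gene start, and the odds ratio of members to these was 0.142 (Fisher's exact test, two-sided, adjusted p = 4.3e-23). It was 95 of 293 (32.4%, 27.3 to 37.98) in upstream peaks, with an odds ratio of 0.96 (Fisher's exact test, adjusted p = 0.85). These intervals and those on fragments cover counting error only. Since all peaks come from 1 pair of libraries, the tests describe this list of peaks and not a condition. Place depends in part on called peak length, and the part of length in the differences from peaks covering a gene start was not tested.

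The background behind each fold could be recovered as well, since MACS2 adds a pseudocount of 1 to pileup and background. It was a whole number of input fragments, within 0.01, at 124 of 257 members, and sat at the list's lowest value of 2.13 at 11 members. The median background was 5.0 input fragments in members, 7.0 in peaks covering a gene start and 5.57 in upstream peaks. A fold was thus read against a low background. Where the background was not a whole number, it is a rate in units of input fragments. The count of fragments behind such a value is unknown. A peak in an intron of Pisd-ps2, an annotated pseudogene, stood apart: it had the most ChIP fragments of all members, 582, and the highest background, 31.0 input fragments, for 9.53-fold enrichment. The next highest background was 15.

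**Figure D1:**
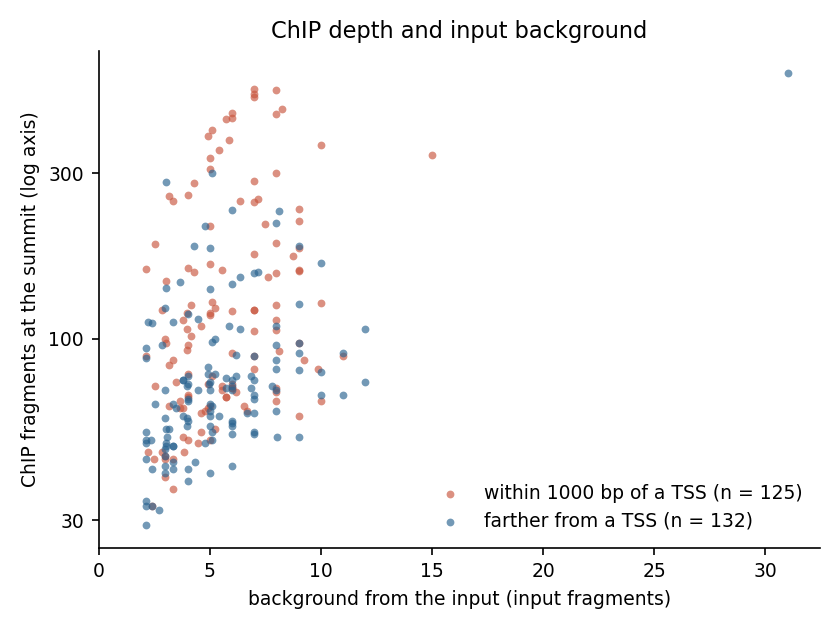
ChIP fragments at the summit (y axis, log scale) against the background set from the input (x axis, in input fragments) for the 257 members, each point a peak, red within 1000 bp of a protein-coding TSS and blue farther away. Red and blue peaks overlap in background, with medians of 5.25 and 5.0, most of the highest ChIP counts are red, and 1 blue peak stands alone at 31.0 input fragments.

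Many peaks inside or downstream of a gene lay close to an annotated TSS. A protein-coding TSS here is the annotated start of any transcript of a protein-coding gene, whether or not that transcript is coding. Whether each such TSS acts as a promoter in these cells was not tested. A protein-coding TSS lay within 1000 bp of the summit in 125 of 257 members (48.6%, 42.6 to 54.7), beside 61.0% of the whole list. They were 111 of the 175 peaks inside genes and 14 of the 81 downstream peaks. Members near a TSS had a median of 9.09-fold, 105 fragments, 57.7% GC and 10 CpG in the 201 bp around the summit. Members away from a TSS, 132 in number, had a median of 6.37-fold, 71 fragments, 48.8% GC and 2 CpG. The median background was 5.25 input fragments near a TSS and 5.0 away from one. An enrichment of 10-fold or more was reached by 24 of 132 members away from a TSS (18.2%, 12.5 to 25.6) and by 57 of 125 near one (45.6%, 37.1 to 54.3), with an odds ratio of 0.27 (Fisher's exact test, two-sided, adjusted p = 3.5e-06). Of the 23 members at 20-fold or more, 21 were near a TSS.

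Among peaks near a TSS alone, those inside or downstream of genes still reached 10-fold less often than those covering a gene start, 45.6% against 76.8% (Fisher's exact test, adjusted p = 2.5e-08), in a comparison added after the data were seen. The part of peak length in this difference was not tested either. Against upstream peaks near a TSS the share was 45.6% to 45.2%, and among peaks away from a TSS it was 18.2% to 22.8% (Fisher's exact test, adjusted p = 0.52).

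**Figure D2:**
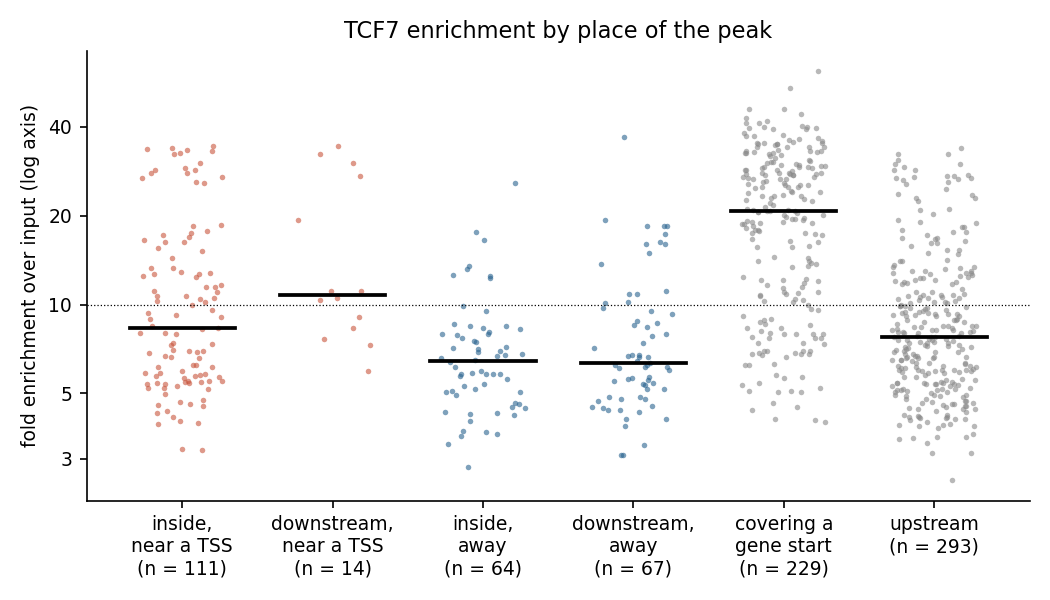
Fold enrichment over input (y axis, log scale) by place of the peak, each point a peak and each bar the median, with a dotted line at 10-fold. Members near a TSS are red, members away from a TSS are blue and the other peaks of the list are grey. The grey peaks covering a gene start sit highest, with a median of 20.8, and the blue groups sit lowest, with medians of 6.45 inside and 6.34 downstream.

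Of the 111 peaks inside a gene and near a TSS, 73 lay within 1000 bp of the annotated start of the gene itself, 37 lay deeper in the gene but within 1000 bp of an internal start of that same gene, and 1 lay at the start of another gene. The peaks just past a gene start included several of the highest members. The peak of Madd, an exchange factor for Rab3 that binds the TNF receptor, had 34.4-fold enrichment and 525 fragments (481 to 572), 0.669 kb into the gene in intron 1. Dedd2, which encodes a protein with a death effector domain, had 33.6-fold and 431 fragments at 0.642 kb. Noct, which encodes the circadian protein nocturnin, had 32.5-fold and 434 fragments at 0.324 kb. Akt2, a kinase of the PI3K pathway, had 33.2-fold and 507 fragments (464 to 553) in intron 1, 0.445 kb from the gene start. A peak 0.592 kb into the antisense gene Gm16796, at 33.4-fold, lay 100 bp from the TSS of Pfdn4, a prefoldin subunit. These 5 peaks had 431 to 525 fragments, against a median of 78 in members.

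Trp53, the tumor suppressor p53, held a peak at 28.7-fold with 350 fragments in intron 1, 0.924 kb from a TSS, with a RUNX motif in its window. Cdk16, a cyclin-dependent kinase gene on the X chromosome, held one at 27.8-fold with 187 fragments over a background of 2.54 input fragments. Smc1a, a cohesin subunit, held one at 14.4-fold with 164 fragments (140 to 191), 0.384 kb from a TSS in intron 1. All 3 are genes that the study names for this ChIP-seq.

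At internal starts, the gene's own first base was as far as 61.6 kb away while a TSS was close by. Ptch1, the Hedgehog receptor, had its peak 2.30 kb into the gene and 599 bp from an internal TSS, at 34.0-fold with 384 fragments. Nr6a1, an orphan nuclear receptor, had one at 32.7-fold with 499 fragments, 302 bp from an internal TSS. Cln8, an endoplasmic reticulum membrane protein, had one 7.37 kb into the gene and 297 bp from an internal TSS, at 30.3-fold. Of the 37 internal starts, 12 lay over 10 kb from the gene start. The highest of these was in Gbp9, an interferon-induced guanylate-binding protein, 29.0 kb into the gene at 27.1-fold. It was followed by Ankrd17 at 26.3 kb and 18.5-fold, Aff1, a subunit of the super elongation complex, at 61.6 kb and 17.5-fold, and Mmp15, a membrane metalloproteinase, at 17.8 kb and 16.6-fold. The peak of Mbnl1, a splicing regulator, lay 26.9 kb into its gene and 10 bp from an internal TSS, at 9.96-fold. Dnmt1, the maintenance DNA methyltransferase, had a peak 6.95 kb into the gene and 39 bp from an internal TSS, at 12.4-fold with 236 fragments (207 to 268). The lowest of the 37 was in Hnrnph1, at 3.22-fold.

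**Figure D3:**
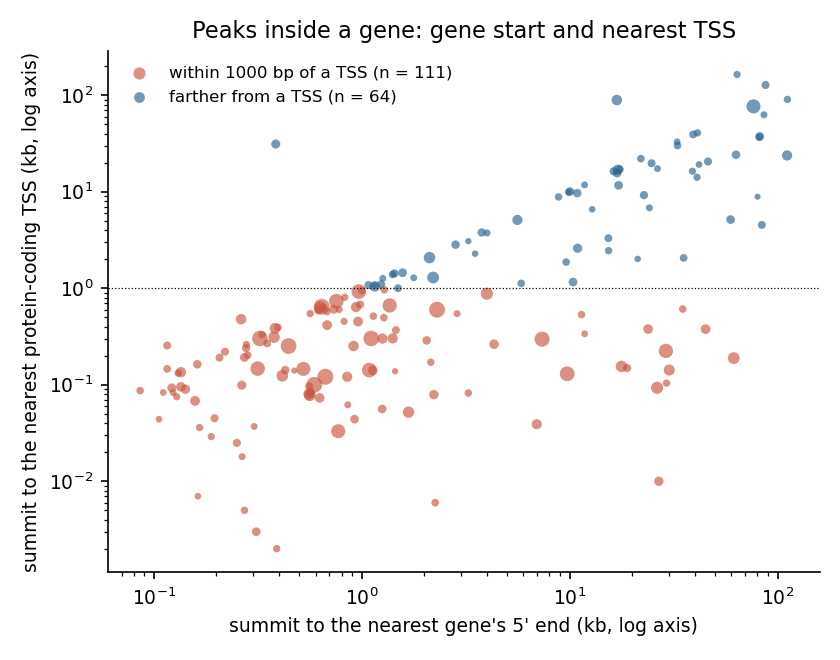
Distance of the summit from the 5′ end of its nearest gene (x axis, kb, log scale) and from the nearest protein-coding TSS (y axis, kb, log scale) for the 175 peaks inside a gene, with point area growing with fold enrichment. Blue points, over 1000 bp from a TSS, lie on the diagonal where the gene start is the nearest TSS and below it where another TSS is nearer. Red points at the lower right are peaks at internal starts, up to 61.6 kb from the gene start.

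Inside peaks away from a TSS, 64 in number, lay within an intron of the gene in 61 cases. The intron was the first of the longest transcript in 36 of 61, and in 25 of 47 when only genes with 5 or more introns were counted. Dividing each gene into 4 equal stretches from its start, 33, 21, 6 and 4 summits were found. Their median distance from a TSS was 9.05 kb. The highest was in intron 1 of Ldlrad4, an inhibitor of TGF-β signaling, 76.6 kb from the TSS, at 25.9-fold with 300 fragments. Next came Ube2d3, a ubiquitin-conjugating enzyme, at 17.7-fold with 235 fragments and 1.29 kb from a TSS. Tnrc6b, a partner of Argonaute in microRNA silencing, held a peak in intron 4, 23.8 kb from a TSS, at 12.6-fold with 216 fragments. Maml1, the Notch coactivator, held one in intron 1, 5.10 kb from a TSS, at 12.5-fold with 118 fragments. Each of these was named by enrichment or by a gene list, and none held a TCF/LEF motif within 100 bp of the summit. Of all 64 inside peaks away from a TSS, 16 (25%) held it, among them those of Inpp5d and Znrf3.

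The place called downstream was checked against the annotation and often did not describe the site. Of the 81 downstream peaks, the nearest gene was protein-coding in 27, a small RNA gene in 19, a processed pseudogene in 14, a lincRNA in 9, an antisense RNA in 8 and of another kind in 1, and it had no match in the annotation in 3. The summit lay within another annotated gene in 43 of 81 and in no annotated gene in 37. In the remaining peak, that of the cochaperone gene Dnajb1, it lay in that gene alone as GENCODE draws it. In 37 the summit lay within a protein-coding gene, and for 15 of those 37 the nearest gene of the table was a small RNA or a pseudogene. For the 175 inside peaks, all summits lay within an annotated gene.

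The highest of all members was of this kind. Its nearest gene was Psmd6, a subunit of the proteasome lid, whose end was 43.9 kb away, but the summit lay in an intron of Atxn7, a subunit of the SAGA histone acetyltransferase complex, 19.2 kb from the nearest TSS. It had 37.0-fold enrichment and 283 fragments (251 to 318) over 3.02 input fragments, ranked 21 in the whole list, and was the only member at 30-fold or more lying away from a TSS. Its 201 bp hold 46.3% GC, 1 CpG and none of the 8 motifs searched, and are shown as those of the strongest member, with the summit base in capitals.
Psmd6 (Atxn7 intron), chr14:14068151-14068351: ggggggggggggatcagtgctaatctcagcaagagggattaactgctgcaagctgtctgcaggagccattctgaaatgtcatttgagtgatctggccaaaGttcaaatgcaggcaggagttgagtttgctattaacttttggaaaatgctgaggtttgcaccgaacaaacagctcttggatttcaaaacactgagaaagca

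Other downstream peaks sat at the start of a gene that the table did not name. The peak past the pseudogene Gm15730 lay 115 bp from the TSS of Sri, the calcium-binding protein sorcin, at 34.5-fold with 400 fragments (362 to 441). The peak assigned to Gm10097 lay 192 bp from a TSS of Syne1, the nuclear envelope protein nesprin-1, at 32.5-fold with 258 fragments. That of Prkag2os1 lay 60 bp from a TSS of Prkag2, a regulatory subunit of AMP-activated kinase, at 30.3-fold with 250 fragments. The peak past Hrc lay 960 bp from a TSS of Ppfia3, a liprin, at 27.2-fold with 259 fragments and held a TCF/LEF motif. Cd8a, a coreceptor of cytotoxic T cells, was the nearest gene of a peak at 8.30-fold with 157 fragments, but the summit lay 17.0 kb past the end of Cd8a and 33 bp from the TSS of Rmnd5a, a subunit of an E3 ubiquitin ligase. Away from a TSS, the peak assigned to the pseudogene Gm13739 lay in an intron of Itga6, the integrin α6 subunit, at 19.4-fold with 212 fragments. The peak assigned to Gm25180 lay in an intron of Agap1, an Arf GTPase-activating protein, at 18.4-fold with 112 fragments. The peak past Neu4, a sialidase gene, lay in no annotated gene, at 17.4-fold with 111 fragments over 2.39 input fragments. The peak past Gm22389, a small RNA gene, also lay in none, at 16.3-fold with 123 fragments. The 1 peak that crossed a gene end, that of the snRNA gene Gm25099, was among the weakest at 3.13-fold with 52 fragments over 8.0 input fragments.

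**Figure D4:**
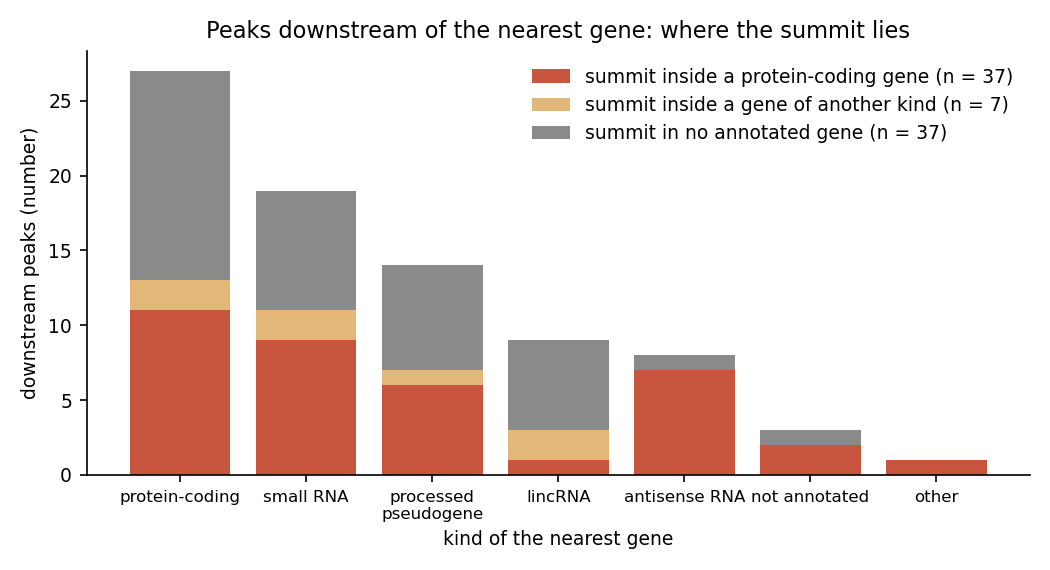
Number of downstream peaks (y axis) by kind of the nearest gene in the deposited table (x axis), divided by where the summit lies in the annotation: in a protein-coding gene (red, 37), in a gene of another kind (yellow, 7) or in no annotated gene (grey, 37). Only 27 of the 81 have a protein-coding nearest gene, and most peaks assigned to an antisense RNA lie in a protein-coding gene.

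Motif counts below are of peaks with the word on either strand, 100 bp or less from the summit. The TCF/LEF motif was found in 44 of 257 members (17.1%, 13.0 to 22.2), beside 15.7% of the whole list. The share was 33 of 132 (25%, 18.4 to 33.0) away from a TSS and 11 of 125 (8.80%, 4.98 to 15.1) near one, with an odds ratio of 3.45 (Fisher's exact test, two-sided, adjusted p = 0.0063 over 8 motifs). With peaks of at most 55% GC only, an alternative added after the data were seen, the shares were 28 of 103 and 3 of 44, with an odds ratio of 5.10 (Fisher's exact test, adjusted p = 0.057). Base composition differed between the groups, with median GC of 48.8% and 57.7%, and its part in the motif counts beyond this was not tested. The call was also lost among peaks of at least 5-fold, at 20 of 98 and 9 of 111 (odds ratio 2.91, Fisher's exact test, adjusted p = 0.11), and with a longer form of the motif, at 12 of 132 and 3 of 125 (odds ratio 4.07, Fisher's exact test, adjusted p = 0.12). Of members with the motif, 9 of 33 away from a TSS held 2 or more, against 0 of 11 near one, a split that was not tested. The motifs did not go with higher enrichment: away from a TSS, peaks with one had a median of 5.74-fold and 1 of 33 reached 10-fold, while those without had a median of 6.74-fold and 23 of 99 did.

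Against windows of the same width 2000 bp away, the TCF/LEF share of members away from a TSS was 33 against 21 of 132, a difference that did not pass (exact McNemar test, two-sided, adjusted p = 0.25). Within those windows, 28 of 42 motifs lay within 50 bp of the summit, against 10 of 22 within 50 bp of the control centre. Near a TSS the order turned, with 11 peaks holding the motif at the summit and 25 in the control window of 125 (exact McNemar test, adjusted p = 0.080). The base composition of control windows was not measured, and its part in these counts was not tested. Compared with peaks covering a gene start, of which 18 of 229 (7.86%, 5.03 to 12.1) held the motif, members held it more often, with an odds ratio of 2.42 (Fisher's exact test, adjusted p = 0.0068). That call was lost with inside peaks only, of which 25 of 175 held the motif (odds ratio 1.95, Fisher's exact test, adjusted p = 0.10), with a window of 50 bp (odds ratio 2.03, adjusted p = 0.084) and at a -log10 q of 10 or more (odds ratio 1.92, adjusted p = 0.071). A TSS was near in 97.8% of peaks covering a gene start and in 48.6% of members. Of members near a TSS, 8.80% held the motif. The part of TSS distance in the difference from peaks covering a gene start was not tested. Compared with upstream peaks, of which 60 of 293 (20.5%) held the motif, the odds ratio was 0.80 (Fisher's exact test, adjusted p = 0.77). Among peaks over 1000 bp from a TSS, 33 of 132 members (25%) and 42 of 167 upstream peaks (25.1%) held it, an odds ratio of 0.99. The share away from a TSS was thus not particular to members.

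The RUNX motif was found in 22 of 257 members (8.56%, 5.72 to 12.6), beside 6.03% of the whole list, and in 1 of 229 peaks covering a gene start, with an odds ratio of 21.3 (Fisher's exact test, adjusted p = 5.4e-05). Around the summit, median GC was 53.2% with 4 CpG in members and 61.2% with 14 CpG in peaks covering a gene start. The part of this, and of TSS distance, in the motif comparisons of these 2 groups was not tested. The RUNX motif was in 16 of 132 members away from a TSS (12.1%) and 6 of 125 near one (4.80%), with an odds ratio of 2.74 that did not pass (Fisher's exact test, adjusted p = 0.12). With a window of 250 bp the counts were 26 of 132 and 8 of 125, which passed (odds ratio 3.59, Fisher's exact test, adjusted p = 0.0045). In windows 2000 bp from the members away from a TSS, 7 of 132 held it (exact McNemar test, adjusted p = 0.25). Both TCF/LEF and RUNX motifs were present in 7 of 257 members (2.72%). All 7 were among the 132 away from a TSS (5.30%), where each motif alone was also more frequent than near one. The share with both in the whole list was not counted, and the split was not tested. These 7 members were singled out after their values were seen. Znrf3, which encodes a ubiquitin ligase that removes Wnt receptors, had 5.79-fold enrichment with 78 fragments in intron 1, 30.1 kb from a TSS, with 2 TCF/LEF motifs and 1 RUNX motif. Inpp5d, shown above, had 7.73-fold. The other 5 were Gm25308, Nek10, Atp8b4, Cfdp1 and Kctd2, at 3.37-fold to 6.13-fold.

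The E-protein motif, CAGGTG, was in 45 of 257 members (17.5%), beside 14.5% of the whole list. It was in 31 of 132 members away from a TSS (23.5%, 17.1 to 31.4) and in 14 of 125 near one (11.2%, 6.79 to 17.9), which just missed the threshold (Fisher's exact test, adjusted p = 0.053), and in 14 of 132 windows 2000 bp away (exact McNemar test, adjusted p = 0.061). The SP1/KLF motif, GGGCGGGG, found in 8.86% of all peaks, was in 19 members against 34 of 229 peaks covering a gene start (Fisher's exact test, adjusted p = 0.020). Near a TSS it was in 13 of 125 summits and 0 of 125 control windows, which allows a share of up to 2.40% at 3 counts of the total (exact McNemar test, adjusted p = 0.0020). The base composition of these control windows was not measured, and its part in this difference was not tested. The limits on the other counts of 0 are also 3 counts. The ETS motif, CCGGAAG, in 4.88% of all peaks, was in 7 members (2.72%) against 24 of 229 peaks covering a gene start (10.5%), an odds ratio of 0.24 (Fisher's exact test, adjusted p = 0.0024). The GATA motif, AGATAAG, in 1.67% of all peaks, was in 9 members against 0 of 229, which allows up to 1.31% (Fisher's exact test, adjusted p = 0.0082). The AP-1 motif, TGANTCA, in 3.47% of all peaks, was in 9 members against 8 of 229 (Fisher's exact test, adjusted p = 1). The CRE motif, TGACGTCA, in 0.899% of all peaks, was in 0 members, which allows up to 1.17%, against 5 of 229 (Fisher's exact test, adjusted p = 0.030). The part of base composition and of TSS distance in these differences from peaks covering a gene start was not tested. Any of the 8 was present in 75 of 132 members away from a TSS and in 41 of 125 near one. None of the 8 passed between members and upstream peaks, where the lowest adjusted p by Fisher's exact test was 0.77.

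**Figure D5:**
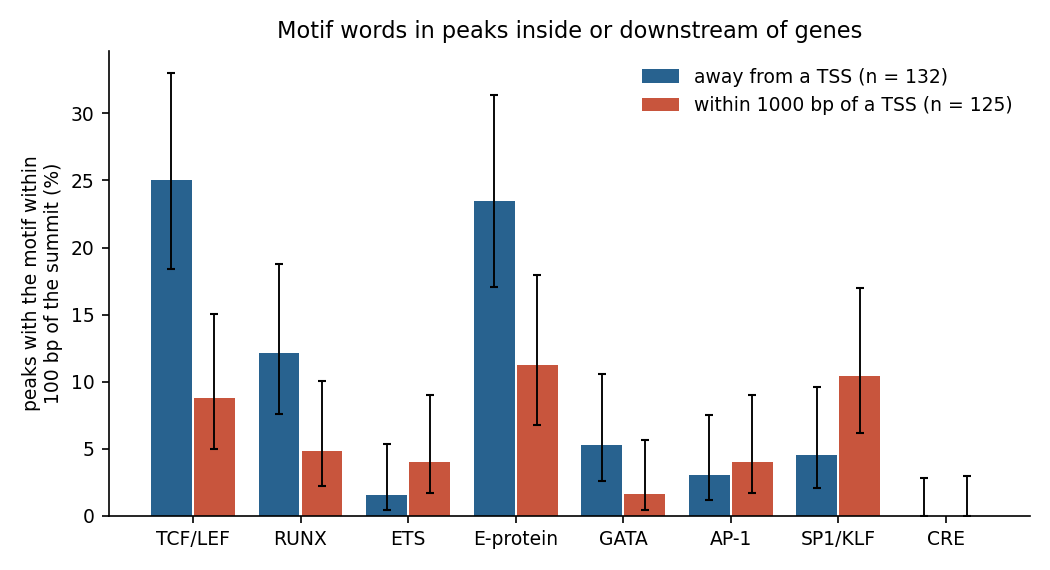
Share of peaks with each of the 8 motifs within 100 bp of the summit (y axis, percent), in members away from a TSS (blue, 132 peaks) and near one (red, 125 peaks), with Wilson 95% intervals as error bars. The TCF/LEF bars stand at 25% and 8.80% and are the only pair past the threshold; RUNX and E-protein are higher in blue and SP1/KLF and ETS in red, without passing it.

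Runs of 4 or more CAG units, on either strand, were in the windows of 32 of 257 members (12.5%, 8.96 to 17.0), beside 8.73% of the whole list. The share was 33 of 293 (11.3%) in upstream peaks and 3 of 229 (1.31%) in peaks covering a gene start. Members with such a run had a median of 7.35-fold and those without had 6.98-fold. The window was repeat-masked over a median of 41.0% of its length with a run and 9.95% without. The 2 highest members with a run, both away from a TSS, are shown because their repeats sit near the summit, with runs of 4 or more CTG units in capitals.
Akap11, chr14:78459461-78459521: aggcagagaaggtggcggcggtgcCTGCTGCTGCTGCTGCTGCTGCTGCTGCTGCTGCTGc
Gm23789, chr15:58594967-58595027: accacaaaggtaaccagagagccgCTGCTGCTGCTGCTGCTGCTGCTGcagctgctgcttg

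The Akap11 peak lay 32.8 kb past the gene, which encodes an anchor of protein kinase A, in no annotated gene, at 18.4-fold with 185 fragments over 4.29 input fragments. The Gm23789 peak lay in an intron of Fer1l6, a ferlin, at 18.4-fold with 140 fragments over 3.02 input fragments. Whether reads map uniquely to such repeats, and their part in these values, was not tested. Without peaks that hold such a run, 31 of 117 members away from a TSS and 10 of 108 near one held the TCF/LEF motif (Fisher's exact test, adjusted p = 0.0073).

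Protein-coding genes that were the nearest gene of a member made up 0.862% of the annotated symbols, and those that held the summit of one made up 0.958%. Of 56 genes of PI3K, Akt and mTOR signaling, 4 were the nearest gene of a member. They were Akt2 at 33.2-fold, Inpp5d at 7.73-fold, Pip5k1a, a kinase that makes PIP2, at 6.98-fold with 105 fragments, and Pik3cg, the catalytic p110γ subunit, at 5.52-fold with 51 fragments. Of 95 chromatin regulators, 5 were: Setd1a, a histone H3 lysine 4 methyltransferase, at 15.6-fold, Smc1a at 14.4-fold, Dnmt1 at 12.4-fold, Chd3, a NuRD helicase, at 5.20-fold, and Rnf2, a Polycomb ubiquitin ligase, at 4.27-fold. Their folds spread across the range of the members, and only the peak of Akt2 was among the 12 highest.

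Of 72 Wnt and β-catenin genes, 2 were the nearest gene of a member. Bcl9, which bridges β-catenin to Pygopus, had 8.35-fold with 158 fragments, 56 bp from an internal TSS, and Znrf3 had 5.79-fold. Of 67 Ras and MAPK genes, Elk1, an ETS factor phosphorylated by ERK, had 12.9-fold with 125 fragments, and Rps6ka3, the kinase RSK2, had 11.04-fold with 73 fragments. Of 72 cell cycle and p53 genes, Trp53 and Cdk16 were counted. Of 78 T-cell genes, Cd8a and Sla, an adaptor that dampens T-cell receptor signaling, were counted. The Sla peak, in intron 2, was weak at 3.58-fold with 53 fragments over 7.0 input fragments. Maml1 was the only one of 41 Notch genes, Tnrc6b of 37 microRNA genes, and Ebp, a sterol isomerase, of 43 cholesterol and SREBP genes, with 3.23-fold and 60 fragments over 9.0 input fragments. None of 51 apoptosis, 60 cytokine and 44 homeobox genes was the nearest gene of a member, beside 0.862% of all protein-coding genes. Nor was any of the genes looked up as controls: 14 B-cell, 14 myeloid, 15 stromal, epithelial and endothelial, and 18 neuron, liver and muscle genes. With lists this short and a share this low, a count of 0 cannot set a list apart from all genes. A gene without a member peak may hold a peak at its start or upstream, or one below the caller's threshold.

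A pair of member peaks was held by 4 genes. Irf1, an interferon regulatory factor, had peaks at 11.6-fold 68 bp from a TSS and at 6.39-fold 1001 bp from one. Jkamp, a membrane protein of the endoplasmic reticulum, had peaks at 11.4-fold and 4.35-fold, both near a TSS. Zfp704, a zinc-finger gene, had peaks at 8.28-fold and 5.82-fold in intron 2, both in windows that were 100% repeat-masked and held a CAG run. Adamts20, a metalloproteinase, had peaks at 5.74-fold and 4.04-fold in intron 1, each with 1 TCF/LEF motif.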

How the data were processed

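Peaks of the TCF7 ChIP library against the input library of DP352 cells, and their nearest genes, were read from 2 deposited tables. Bowtie2, MACS2 and the build mm10 are in the submitters' processing notes, and the methods place the alignment and peak calling by the authors in Chipster. Their versions and settings were not given in the sources used here. Per peak, the authors deposited the pileup, a coverage signal at the summit, the fold enrichment, a ratio of pileup to input background, and the -log10 of p- and q-values. The authors' table of nearest genes has headers out of step with its columns, which were read by content. RNA-seq was not analysed here.

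Members were the peaks placed inside, downstream of or across the end of the nearest gene. Members, gene lists and motifs were chosen with earlier results of these data known. Pileups were divided by their step, 0.522, to give ChIP fragments (whole within 0.0117 fragments at every peak), so that 1.92 ChIP fragments count as 1 input fragment. Background was (pileup + 1)/fold - 1. The total depth of the libraries is unknown. TSS and genes came from GENCODE vM21, in which 3 member gene identifiers had no match, and sequences from the RefSeq copy of GRCm38. A protein-coding TSS was the annotated start of any transcript of a protein-coding gene, whatever the kind of transcript. A TSS within 1000 bp counted as near. Motifs were compared by Fisher's exact test or, against windows 2000 bp away, the exact McNemar test, both two-sided with Benjamini-Hochberg adjustment over 8 motifs, and shares at 10-fold over 3 comparisons (4 for those added later), at a threshold of 0.05. No p-value treats peaks as replicates of a condition. Tests and the motif finder were tested on simulated data.

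Named genes were the 12 highest members, the 10 highest away from a TSS, the 6 highest downstream, the peak that crosses a gene end, up to 4 per gene list, genes with 2 members and genes that the study names. Others, among them the internal starts, Pisd-ps2 and Rnf2, were chosen after their values were seen. Sequences were those of highest enrichment with a motif whose printed stretch overlaps no annotated UTR and is not on chromosome 18, with SP1/KLF, Psmd6 and the CAG runs chosen later. A further sequence near a TSS is not reported here. Alternatives were windows of 50 and 250 bp, TSS distances of 500 and 5000 bp, stricter enrichment and q-values, other forms of the TCF/LEF motif and single places. The software was samtools 1.23.1, scipy 1.17.1, pandas 2.3.3, matplotlib 3.10.9, numpy 2.4.6 and pysam 0.24.0 under Python 3.11.15.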

Additional observations from a re-analysis of the deposited data

How the results depend on the processing

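No paired analysis was possible because each group has 1 library. No called value changed its direction under any alternative run. Alternatives were not run for the RUNX, ETS, GATA, SP1/KLF and CRE comparisons with peaks covering a gene start. The SP1/KLF comparison with control windows had none either. The TCF/LEF odds ratio of 3.45 between members away from and near a TSS lost its call at a fold enrichment of at least 5 (2.91, Fisher's exact test, adjusted p = 0.11), with the longer form of the motif, whose words lie within the shorter one (4.07, adjusted p = 0.12), and at a GC content of at most 55% (5.10, adjusted p = 0.057). Each of these leaves fewer peaks or fewer motifs to compare, and the part of this in the lost calls was not tested. Against peaks covering a gene start, the odds ratio of 2.42 lost its call with a window of 50 bp (2.03, Fisher's exact test, adjusted p = 0.084), a stricter q-value, a -log10 of 10 or more (1.92, adjusted p = 0.071) and inside peaks only (1.95, adjusted p = 0.10); the cause was not tested. The RUNX odds ratio of 2.74 between members away from and near a TSS passed with a window of 250 bp (3.59, Fisher's exact test, adjusted p = 0.0045) and with 500 bp as the distance from a TSS (6.91, adjusted p = 0.010). The other 51 tested values stayed on their side of the threshold, and the count of list genes with a member peak was 20 both by nearest gene and by the gene that holds the summit. The genes were not all the same. By the gene that holds the summit, Cd8a was not counted and Smarca2, of the chromatin list, was. With 1 library a group, no value has an error between cultures. Folds over a background that is a count of a few input fragments have low precision. The precision of folds over other backgrounds is unknown.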
